A study of Mus musculus with 68 samples.

Results

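The comparison described here is that between early 2-cell (E2C) and late 2-cell (L2C) mouse embryos made by somatic cell nuclear transfer (SCNT), the interval in which the major wave of embryonic transcription starts. It took in every library titled as an SCNT embryo of either stage, 12 of the 68 samples in the series, 6 per stage. Poly(A)-selected RNA was sequenced from pools of 10 blastomeres. Members were the annotated genes, 24421 symbols present in every table, of which 11867 had a mean of at least 1 TPM (a gene's length-corrected share of the transcripts of a library) over the 53 SCNT libraries and were tested. Both stages shared the same construction, with the nucleus of a cumulus cell placed in an enucleated oocyte of a BDF1 female (B6D2F1 in the study's methods), activation in SrCl2 with cytochalasin B, and culture in G-1 PLUS medium. None of the 12 libraries carried an injected RNA or another treatment, so stage was the only labelled difference between the groups. The labels give neither separate cultures nor a batch, and they speak of 3 replicates per stage where 6 were deposited. The spread between libraries may therefore be partly technical. The p-values below rest on that spread pooled over the 53 SCNT libraries of 9 stages, not on the 12 libraries alone.

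Before activation a mouse embryo lives on RNA and protein stored in the oocyte. Transcription from the embryonic genome starts weakly in the zygote and strongly in the late 2-cell embryo, when genes for ribosomes, RNA processing and protein turnover become active, after a brief burst of 2-cell-restricted genes such as the Zscan4 family. Stored maternal mRNAs are deadenylated and degraded over the same period. In an SCNT embryo the genome to be activated is that of a differentiated cell, whose H3K9me3-marked chromatin is known as a barrier to activation.

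Aligned sequence per library was 3.05 to 4.68 gigabases, and 9903 to 11771 genes reached 1 TPM. The summed TPM of annotated genes equalled 59.5% to 69.1% of that of assembled loci without a gene name in E2C. In L2C it equalled 51.4% to 61.8% in replicates 2 to 6, but 30.4% in replicate 1. Those loci alone summed to 1000000 TPM in every library, and annotated genes were listed beside them. L2C replicate 1 stood apart from the other L2C libraries. Each library was read over the genes called when that library was left out of the fit, so the gene sets differ. The mean log2(TPM + 1) of rising genes was 3.54 over 2985 genes in replicate 1. In replicates 2 to 6 it was 4.23 to 4.69 over 2539 to 2713 genes. Replicates 1 to 3 also differed from replicates 4 to 6 at both stages. The mean log2(TPM + 1) of rising genes minus that of falling genes was -1.87 to -2.25 in E2C replicates 1 to 3 and -3.48 to -3.56 in replicates 4 to 6, and in L2C 0.78 to 1.52 and -0.02 to 0.17. Here too the gene sets were those called without the library read. No label names this split. Where either feature moved the count of a list in its main direction by over 1.5 times, the count with it is given beside the main one.

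In all, 2812 genes (23.7% of those tested) rose and 1329 (11.2%) fell from E2C to L2C, where rose and fell mean a Benjamini-Hochberg adjusted p under 0.05 in limma and a change of at least 2-fold on the log2(TPM + 1) scale. That scale understates the change of low genes. Changes below are differences on it, L2C minus E2C. The E2C and L2C libraries did not overlap for 2198 genes (18.5%). Without L2C replicate 1, 2985 genes rose and 1054 fell. The median change of all tested genes was 0.26, against which list medians are to be read. TPM values are shares of a library, so a gene can change its share without changing in amount, and in these bulk pools fewer cells of a kind and less RNA per cell cannot be told apart. With the libraries quantile-normalized the median moved to -0.02, with 2307 genes rising and 2486 falling. With TPM rescaled over annotated genes it moved to 0.54, with 4013 rising and 1066 falling. The share of rising genes among those called therefore depends on the scaling. In replicates 1 to 3 alone 1473 genes rose and 1105 fell, and in replicates 4 to 6 alone 3402 rose and 1300 fell, with 1142 rising and 526 falling genes of the full fit called in both.

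The genes that rose here had a low median in the zygote and a higher one at every stage from L2C on, though 12.5% of them were under 1 TPM in the inner cell mass, where the lower quartile was 3.96 TPM against 7.77 TPM in L2C. Their median level, taken in each library and then over libraries, was 1.54 TPM at 6 h post activation (hpa), 2.13 at 14 hpa and 3.17 in E2C. It was 17.4 TPM in L2C and 21.5 TPM at the 4-cell stage, and 20 to 21.5 TPM in the cells of the blastocyst. The genes that fell started at 30.6 TPM at 6 hpa and 33.8 TPM at 14 hpa, stood at 9.86 TPM in L2C, and were at 1.68 TPM at the 4-cell stage and 0.70 TPM at the 8-cell stage. In cumulus cells, the nuclear donors, the medians were 14.1 TPM for the rising and 1.54 TPM for the falling genes. E2C and L2C values chose the genes and are shown as a description. The other stages were not used to set the direction. The other SCNT stages did enter the filter on mean TPM and the pooled spread behind the p-values. A gene low in the zygote could pass that filter through a high level at a later stage. The low start and later high level of the rising genes are therefore partly fixed by the filter.

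**Figure D1:**
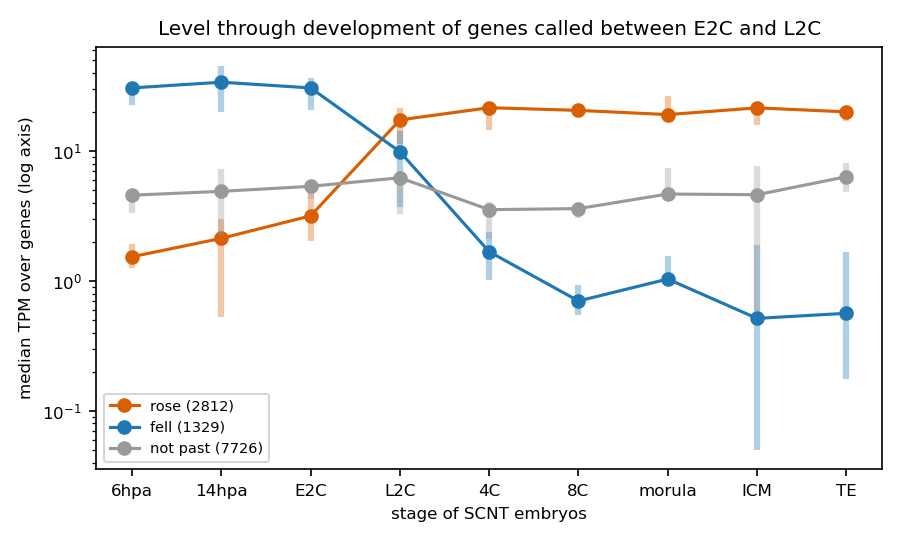
Median TPM (log axis) of the genes that rose, fell or did not pass the threshold from E2C to L2C, over the 9 SCNT stages. Points are medians over libraries of the library medians and bars span the libraries. Rising genes went from 3.17 TPM in E2C to 17.4 TPM in L2C and stayed near 20 TPM, and falling genes went from 30.6 to 9.86 TPM and then below 2 TPM.

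Among genes without overlap between stages and with at least 5 TPM in the higher stage, the largest rise was in Obox6, a homeobox gene of the Obox cluster at chr7:15833250-15839679 (mm10, minus strand). Obox6 was at 2.03 to 11.1 TPM (median 4.56) in E2C and 15.2 to 521 TPM (median 339) in L2C. L2C replicate 1 was the lowest of its stage, yet above every E2C library. The log2 change was 5.14 (SE 0.61, adjusted p = 1.67e-09), and the mean went on to 802 TPM at the 4-cell and 1379 TPM at the 8-cell stage before it was 18.2 TPM in the inner cell mass. Timd2, which encodes a cell-surface receptor of the TIM family, was at 6.17 to 11.6 TPM (median 8.37) in E2C and 60.6 to 949.9 TPM (median 204) in L2C. Its lowest L2C library was again replicate 1, and the stages did not overlap (log2 change 4.46, SE 0.42, adjusted p = 4.44e-12). Crip1, a small LIM-domain protein, was at 0.925 to 3.14 TPM (median 1.76) in E2C and 47.5 to 97.2 TPM (median 54) in L2C, a log2 change of 4.51 (SE 0.6, adjusted p = 2.63e-08). Crip1 had 247 TPM in the donor cumulus cells and 493 TPM in the later trophectoderm. Nupr1, a stress-responsive nuclear protein, was at 2.95 to 52.4 TPM (median 15.5) in E2C and 94.3 to 875 TPM (median 368) in L2C. Its L2C replicates 1 to 3 were the 3 highest and, in E2C too, replicates 1 to 3 were above replicates 4 to 6 (log2 change 4.28, SE 0.9, adjusted p = 1.23e-04). Vimp, which encodes selenoprotein S of the endoplasmic reticulum, rose by 4.41 and Emc9, of the endoplasmic reticulum membrane complex, by 4.5. The other genes of the 10 largest rises were 1600010M07Rik (4.59), Gm16367 (4.32), Ocm, which encodes the calcium-binding protein oncomodulin (4.26), and Trim43b (4.22), whose close copies make its value uncertain.

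**Figure D2:**
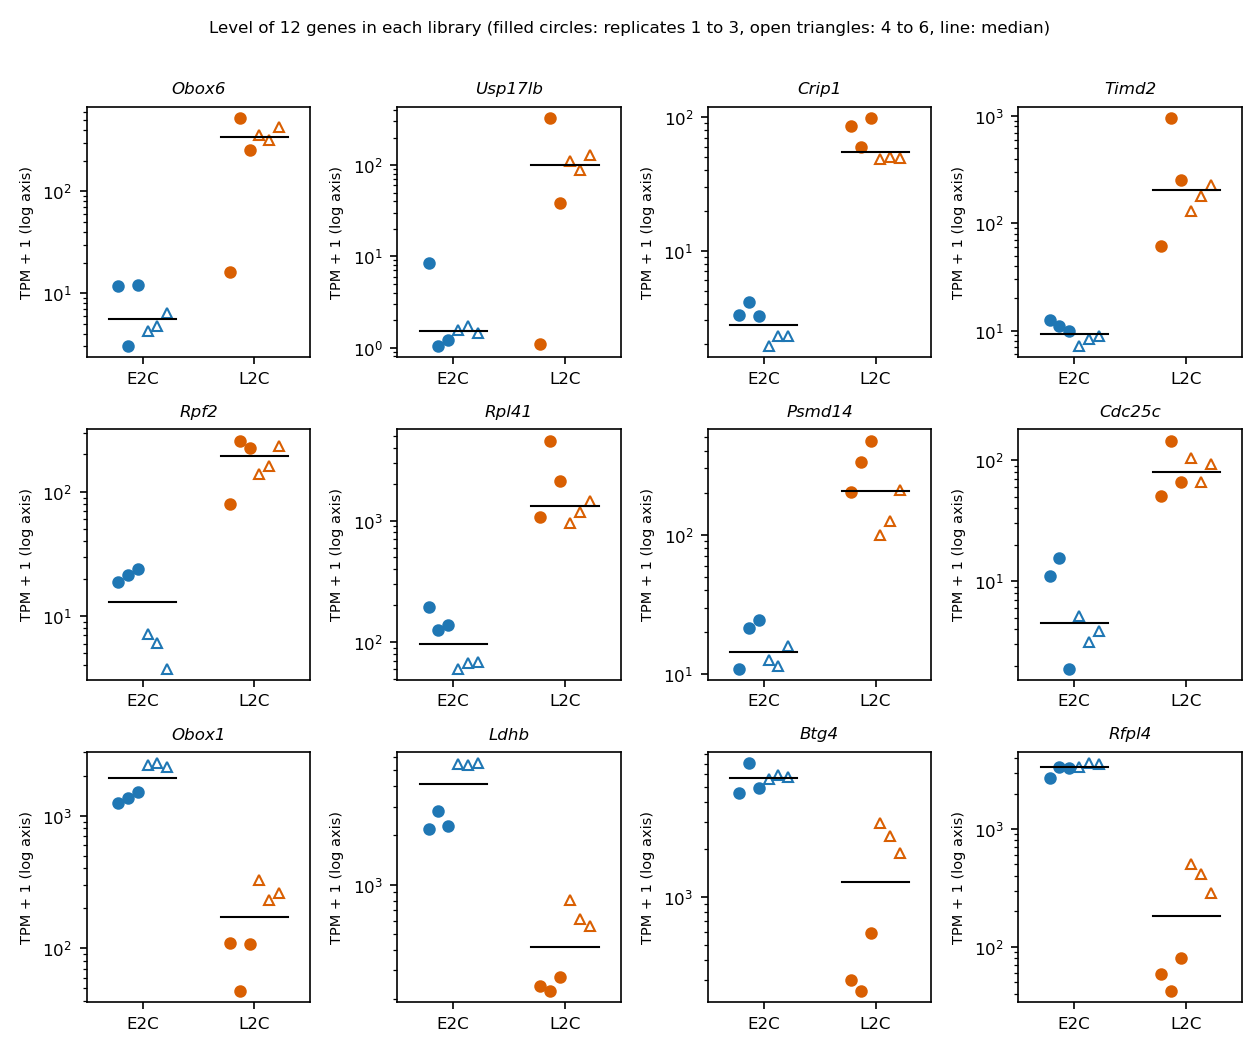
TPM (log axis) of 12 genes in each of the 6 E2C and 6 L2C libraries, one point per library. Obox6, Crip1, Timd2, Rpf2, Rpl41, Psmd14 and Cdc25c lie higher in every L2C than in any E2C library, Usp17lb overlaps through L2C replicate 1, and Obox1, Ldhb, Btg4 and Rfpl4 lie lower in every L2C library.

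Of the genes known from the 2-cell burst, 16 of 29 tested members rose and 1 fell, with a median log2 change of 1.5. These are shares of 55.2% and 3.4%, against 23.7% and 11.2% over all tested genes. Their summed TPM was 508 to 912 TPM in E2C (median 831) and 127 to 1501 TPM in L2C (median 1284). L2C replicate 1 held the lowest sum of all 12 libraries, and the other 5 L2C libraries held 773 to 1501 TPM. Usp17lb, a deubiquitinase gene at chr7:104840312-104842504, was at 0.0396 to 7.46 TPM (median 0.515) in E2C and 0.0972 to 324 TPM (median 98.4) in L2C. The L2C minimum was replicate 1, and E2C replicate 1 was the E2C maximum, so the stages overlapped, and the log2 change was 4.77 (SE 0.66, adjusted p = 6.83e-08), or 5.87 without L2C replicate 1. The Tdpoz genes encode BTB and MATH domain proteins, and Tdpoz4 rose by 3.7, Tdpoz1 by 3.32, Tdpoz5 by 3.14 and Tdpoz2 by 2.06. Zscan4c, a zinc finger gene that marks the 2-cell state, was at 0.0834 to 26.2 TPM (median 1.23) in E2C and 0.0665 to 24.5 TPM (median 16.3) in L2C. E2C replicate 1 was the highest of all 12 libraries and L2C replicate 1 the lowest, and the other 5 E2C libraries lay below the other 5 L2C libraries. Its log2 change was 1.98 (SE 0.49, adjusted p = 8.77e-04), with 0.36 in replicates 1 to 3 and 3.6 in replicates 4 to 6, a difference that was not tested. Zscan4a, Zscan4d and Zscan4f also rose, by 1.71, 1.5 and 1.86. AF067063 rose from a median of 19.2 TPM to 139 TPM, Sp110, an interferon-induced nuclear body protein, from a median of 52.5 TPM to 154 TPM, a rise that did not pass in 10 of the 24 alternatives, and Spz1, a helix-loop-helix factor, from a median of 2.53 TPM to 23.8 TPM. Gm20767, Gm12794, Pramef25 and B020004J07Rik rose as well, the last of them not past the threshold in 10 alternatives. Tcstv1 went the other way, from 222 to 447 TPM (median 364) in E2C to 2.77 to 214 TPM (median 74.9) in L2C, without overlap (log2 change -3.05, SE 0.57, adjusted p = 2.15e-05). Its relative Tcstv3 (log2 change -0.77) and Zfp352 (0.34) did not pass, with lowest L2C values in replicate 1 of 9.15 and 8.55 TPM. Most of these genes lie in families of near-identical copies between which reads can be split, so single-copy values are uncertain. By library set, 4 members rose and 1 fell in replicates 1 to 3 alone, 19 rose and 1 fell in replicates 4 to 6 alone, and 18 rose and 1 fell without L2C replicate 1.

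The stretch of 250 bases before the RefSeq start (GRCm38.p6) is shown for Zscan4c and Usp17lb, as members of this group, with motif matches in capitals.
Zscan4c chr7:11005495-11005744 (plus strand): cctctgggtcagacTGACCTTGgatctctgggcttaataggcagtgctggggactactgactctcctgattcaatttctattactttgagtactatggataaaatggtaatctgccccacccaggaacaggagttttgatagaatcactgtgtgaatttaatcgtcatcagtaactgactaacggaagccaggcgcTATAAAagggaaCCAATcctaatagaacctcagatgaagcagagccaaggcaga
Usp17lb chr7:104842584-104842833 (minus strand): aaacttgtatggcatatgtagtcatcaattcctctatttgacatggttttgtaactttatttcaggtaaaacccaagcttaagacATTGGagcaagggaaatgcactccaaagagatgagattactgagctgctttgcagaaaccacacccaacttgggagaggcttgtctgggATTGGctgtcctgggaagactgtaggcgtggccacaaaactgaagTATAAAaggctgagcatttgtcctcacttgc
In Zscan4c the capitals mark CAAGGTCA, the letters bound by the NR5A nuclear receptors, on the opposite strand, printed as TGACCTTG, 236 to 229 bases before the start, TATAAA at 54 to 49 and CCAAT, the NF-Y letters, at 42 to 38. In Usp17lb they mark CCAAT on the opposite strand, printed as ATTGG, at 165 to 161 and 76 to 72 bases, and TATAAA at 31 to 26. Windows that also took the 50 bases after the start were at hand for 16 of the 32 annotated genes of the 2-cell group, 18 windows in all. CCAAT on either strand stood in 77.8% of these windows and in 39.1% of those of all tested genes. TATAAA stood in 44.4% and 7.89%. CAAGGTCA stood in 22.2% and 1.09%, and all its windows in the group belonged to Zscan4 copies, which share sequence. Of all windows of the RefSeq table, 37.4% held CCAAT, 13.6% TATAAA and 1.56% CAAGGTCA. Most genes of the group lie in families of near-identical copies, so its windows are not independent.

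Of the transcription factors tied to activation, 13 of 36 tested members rose and 4 fell, with a median log2 change of 0.42. The share risen was 36.1% against 23.7% over all tested genes, and the share fallen of 11.1% was near the 11.2%. In replicates 1 to 3 alone 8 rose and 5 fell, and with quantile normalization 13 rose and 8 fell. The Obox cluster moved in both directions, with Obox6 and Obox3 among the genes that rose, and all 4 genes that fell being its members Obox1, Obox2, Obox5 and Obox7. Obox1 was at 1251 to 2479 TPM (median 1917) in E2C and 46.5 to 326 TPM (median 169.7) in L2C. The stages were far apart in every library (log2 change -3.6, SE 0.34, adjusted p = 4.92e-12), and the mean Obox1 level went from 3712 TPM at 6 hpa to 0.741 TPM at the 8-cell stage. Obox3 rose by 3.01, Obox5 fell by 3.28 on the log2 scale, and the Obox copies are similar enough that reads may be shared between them. Dppa4, a chromatin protein that acts with Dppa2 upstream of Dux, rose from a median of 17.8 TPM to 218 TPM (log2 change 3.54, SE 0.39, adjusted p = 2.70e-10). Crxos, a homeobox gene, was at 14.2 to 180 TPM (median 17.1) in E2C and 56.4 to 1403 TPM (median 315) in L2C. L2C replicate 1 lay inside the E2C range (log2 change 3.3, SE 0.64, adjusted p = 3.65e-05). Gabpa, an ETS factor, rose from a median of 3.28 TPM to 45.1 TPM (log2 change 3.1, SE 0.4, adjusted p = 1.67e-08). Nr5a2, Klf4, Klf5, Tead4, Nfyb, Zfp281 and Yy1 rose too. The summed TPM of the list went the other way, at 7058 to 9268 TPM in E2C (median 8299) and 871 to 4010 TPM in L2C (median 3255), as the 4 falling Obox genes carried most of it in E2C, with E2C medians of 4753 TPM for Obox5, 1917 for Obox1, 594 for Obox2 and 401 for Obox7.

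Ribosomal protein genes had the highest share of members risen among the 26 gene lists. Of cytosolic ribosomal protein genes, 69 of 79 tested members rose and 0 fell, a share of 87.3% against 23.7% over all tested genes, and 64 did not overlap between stages, against 18.5% of all genes. The median log2 change was 2.05, and the summed TPM was 3817 to 6114 TPM in E2C (median 4942) and 11626 to 28296 TPM in L2C (median 18227). Rpl41, the smallest protein of the large subunit, was at 59.5 to 193 TPM (median 96.2) in E2C and 962 to 4541 TPM (median 1320) in L2C. Every L2C library was several-fold above the highest E2C library (log2 change 4.02, SE 0.37, adjusted p = 2.57e-12). Rps26 rose from a median of 64.6 TPM to 706 TPM, Rps27 from a median of 21.1 TPM to 188 TPM and Rpl24 from a median of 48.3 TPM to 398 TPM. Ribosomal protein genes have many processed pseudogenes, so how their reads were split is uncertain. Of ribosome biogenesis factors and RNA polymerase I subunits, 55 of 87 tested members rose and 1 fell (median log2 change 1.37), but 28 rose in replicates 1 to 3 alone and 62 in replicates 4 to 6 alone. In the full fit the shares were 63.2% and 1.1%, against 23.7% and 11.2% over all tested genes. Rpf2, which helps to place the 5S particle in the large subunit, was at 2.78 to 23.1 TPM (median 12) in E2C and 78.5 to 256 TPM (median 193) in L2C. The stages did not overlap (log2 change 3.98, SE 0.33, adjusted p = 7.17e-14). Fcf1, a factor of 18S rRNA processing, Noc2l and Tbl3 followed, at log2 changes of 3.37, 2.99 and 2.93. The kinase gene Riok1, of late small-subunit assembly, was the gene that fell (log2 change -1.63, SE 0.49, adjusted p = 0.00636).

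The upstream 250 bases of Rpl41 and Rps26 are shown because both stood among the 4 largest rises of the ribosomal proteins, with motif matches in capitals.
Rpl41 chr10:128549169-128549418 (minus strand): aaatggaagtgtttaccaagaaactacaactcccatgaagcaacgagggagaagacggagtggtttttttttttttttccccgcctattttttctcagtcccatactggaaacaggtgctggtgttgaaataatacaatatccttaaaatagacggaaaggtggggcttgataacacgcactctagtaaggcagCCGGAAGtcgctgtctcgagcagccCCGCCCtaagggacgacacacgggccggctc
Rps26 chr10:128626507-128626756 (minus strand): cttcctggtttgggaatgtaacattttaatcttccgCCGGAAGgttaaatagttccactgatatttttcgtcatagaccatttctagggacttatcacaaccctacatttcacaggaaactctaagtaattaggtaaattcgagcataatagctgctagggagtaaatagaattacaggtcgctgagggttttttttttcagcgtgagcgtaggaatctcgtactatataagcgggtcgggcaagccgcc
The capitals mark CCGGAAG, the core letters of ETS sites, at 56 to 50 bases before the start in Rpl41 and 214 to 208 in Rps26, and GGGCGG, the letters of Sp and Klf sites, on the opposite strand at 31 to 26 in Rpl41. In windows with 50 bases after the start included, CCGGAAG on either strand stood in 36.8% of ribosomal protein windows, 38.4% of ribosome biogenesis windows, 40.0% of aminoacyl-tRNA synthetase windows, 48.6% of proteasome windows and 35.4% of spliceosome windows. In the same order, genes that rose held it in 21 of 60, 21 of 55, 2 of 7, 7 of 14 and 8 of 25 windows. Genes that did not pass held it in 4 of 8, 12 of 30, 4 of 7, 9 of 18 and 16 of 46. It also stood in 34.1% of chaperone, 32.7% of translation factor, 32.1% of DNA replication and 31.5% of RNA polymerase II windows. It stood in 17.9% of windows of all tested genes, in 19.6% of those of the genes that rose and 14.9% of those that fell, and in 8.86% of all windows of the RefSeq table. AAGATGG, named for YY1, can share its AAG with CCGGAAG, and stood in 17.6% of ribosomal protein windows and 7.33% of all tested. The match of letters is a description of these windows and no measure of binding.

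Translation factors and tRNA charging rose in part, with shares risen of 43.1% and 40.9% against 23.7% over all tested genes. Their shares fallen were 7.8% and 4.5%, below the 11.2% over all tested genes. For translation initiation and elongation factors, 22 of 51 tested members rose and 4 fell (median log2 change 0.85), led by Eif4ebp1, the repressor of cap-binding eIF4E, which rose from a median of 23.2 TPM to 186 TPM (log2 change 3.07, SE 0.37, adjusted p = 2.20e-09). The core subunits Eif3c and Eif3m of the initiation factor eIF3 rose by 2.86 and 2.78. Eif1b, a start-codon selection factor, fell from a median of 244 TPM to 54.4 TPM (log2 change -2.1, SE 0.37, adjusted p = 9.42e-06). For aminoacyl-tRNA synthetases, 9 of 22 tested members rose and 1 fell, with Rars, Mars, Iars and the scaffold protein Aimp2 rising by 2.96, 2.88, 1.81 and 1.7. Farsb, a subunit of the phenylalanine enzyme, fell (log2 change -1.78, SE 0.41, adjusted p = 4.20e-04).

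**Figure D3:**
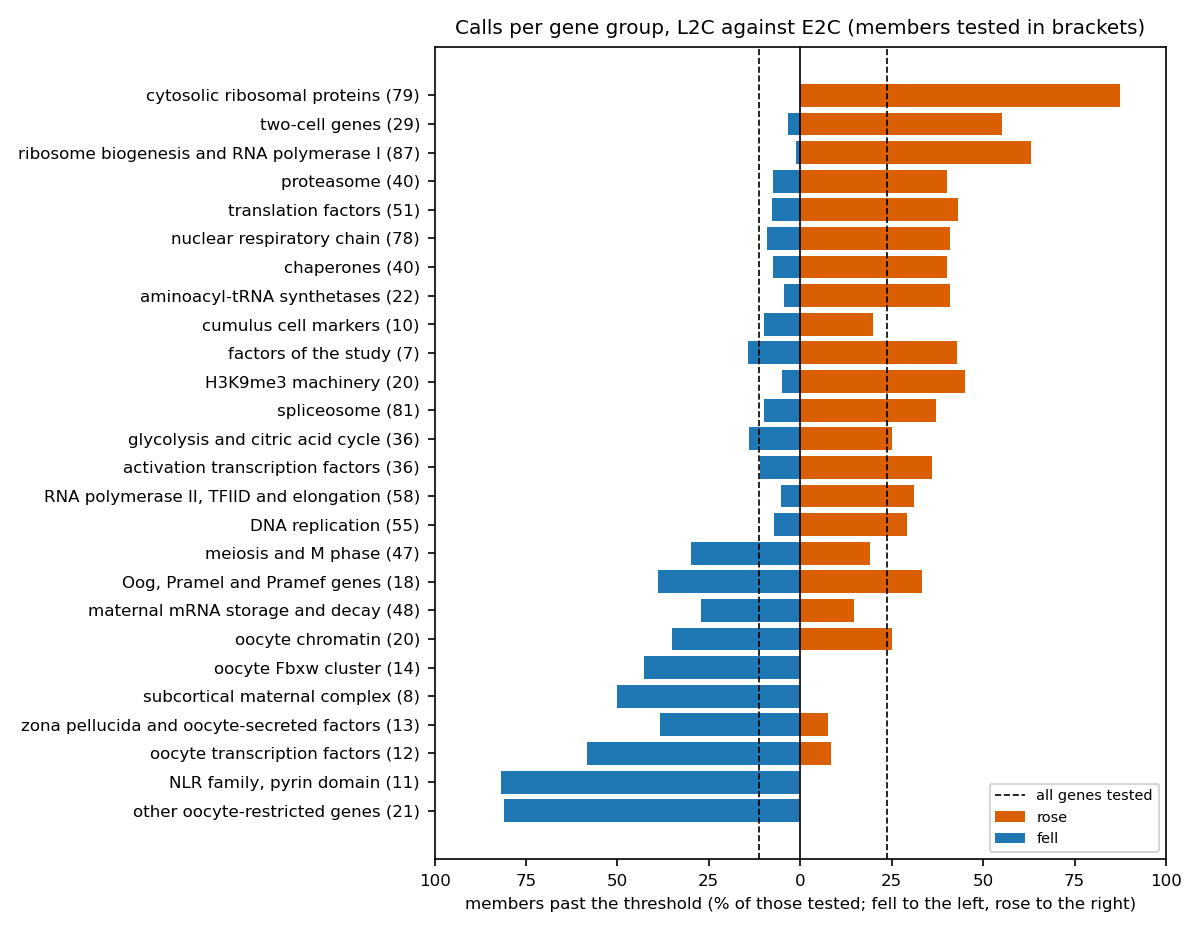
Share of tested members (percent, bars from 0) that rose or fell from E2C to L2C in each of the 26 gene lists, with dashed lines at the 23.7% and 11.2% of all tested genes. Cytosolic ribosomal proteins stand at 87.3% risen and other oocyte-restricted genes at 81% fallen.

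The proteasome, the spliceosome and RNA polymerase II contained members that moved in opposite directions. Their shares risen were 40%, 37% and 31%, against 23.7% over all tested genes. Their shares fallen were 7.5%, 9.9% and 5.2%, below the 11.2% over all tested genes. Of proteasome subunits and assembly factors, 16 of 40 tested members rose and 3 fell (median log2 change 0.88). Psmd14, the deubiquitinase of the 19S lid, was at 9.98 to 23.5 TPM (median 13.4) in E2C and 97.8 to 468 TPM (median 205) in L2C. All L2C libraries were above all E2C libraries (log2 change 3.76, SE 0.33, adjusted p = 5.27e-13). The 20S subunits Psmb1, Psmb5 and Psmb7 rose by 3.08, 3.0 and 2.95. Psmb6, another catalytic 20S subunit, was at 426 to 498 TPM (median 453) in E2C and 53.3 to 245 TPM (median 170.2) in L2C and so fell without overlap (log2 change -1.68, SE 0.22, adjusted p = 1.58e-08). Psmb3 and the assembly chaperone Psmg1 fell as well. Of spliceosome genes, 30 of 81 tested members rose and 8 fell (median 0.48), but 17 rose in replicates 1 to 3 alone. The splicing regulator Srsf7 rose from a median of 30.4 TPM to 233 TPM (log2 change 2.86, SE 0.37, adjusted p = 1.11e-08), and Snrnp25, Snrpd2 and Lsm4 by 2.85, 2.6 and 2.52. Snrpb2, a U2 particle protein, was at 159 to 526 TPM (median 332) in E2C and 14.1 to 107 TPM (median 64.1) in L2C and fell (log2 change -2.38, SE 0.3, adjusted p = 9.22e-09). With it fell the Sm proteins Snrpd1, Snrpd3, Snrpe and Snrpf, and also Snrnp27, Phf5a and Hnrnpc. The summed TPM of the spliceosome had close medians, at 8201 to 10959 TPM in E2C (median 9891) and 4886 to 10381 TPM in L2C (median 9789). Of RNA polymerase II, general factor and elongation genes, 18 of 58 tested members rose and 3 fell (median 0.38), a share risen of 31%, but 10 rose and 5 fell in replicates 1 to 3 alone. Nelfe of the pausing factor NELF rose by 2.66, Polr2k by 2.42, Gtf2f1 by 2.23 and Polr2b, of the catalytic core, by 2.07. Polr2c, a core subunit, was at 845 to 1716 TPM (median 1460) in E2C and 109 to 1031 TPM (median 482) in L2C with the stages overlapping, and fell (log2 change -1.88, SE 0.41, adjusted p = 1.79e-04), with -2.81 in replicates 1 to 3 and -0.95 in replicates 4 to 6. Gtf2b and Supt16 fell too.

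Chaperone and replication genes were similarly mixed, with shares fallen of 7.5% and 7.3%, also below the 11.2% over all tested genes. The share of chaperones that rose was 40%, against 23.7% over all tested genes. Of chaperones, 16 of 40 tested members rose and 3 fell (median 0.78), among them Cct6a of the TRiC chaperonin, which rose from a median of 8.37 TPM to 45.5 TPM (log2 change 2.84, SE 0.33, adjusted p = 1.30e-09), the cytosolic Hspa4 (2.84), the prefoldin subunit Pfdn6 (2.38) and Hspa5, the main chaperone of the endoplasmic reticulum (2.12). Pfdn4, also of prefoldin, fell (log2 change -2.39, SE 0.4, adjusted p = 3.45e-06). Of DNA replication genes, 16 of 55 tested members rose and 4 fell (median 0.28), a share risen of 29.1% against 23.7% over all genes. The primase Prim1 rose from a median of 9.26 TPM to 112 TPM (log2 change 3.25, SE 0.28, adjusted p = 2.02e-13), and Mcm3, Gins1 and Top2a by 2.33, 2.29 and 2.11. Rpa3, of the single-strand binding complex RPA, fell from a median of 593 TPM to 131 TPM (log2 change -2.21, SE 0.25, adjusted p = 4.77e-10), and Rpa1, Dut and Orc5 fell too. Its summed TPM had a lower median in L2C, at 4128 to 5744 TPM in E2C (median 5008) and 1820 to 4844 TPM in L2C (median 4288), against a positive list median.

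The level of these genes at 6 hpa, in libraries outside the contrast, is given beside their direction. Genes at 10 TPM or more at 6 hpa passed the filter on mean TPM by that level alone. Of those from 10 to 100 TPM 16.0% rose and 16.9% fell, and from 100 to 1000 TPM 7.28% rose and 35.2% fell. Of the 102 genes at 1000 TPM or more, 0.98% rose and 60.8% fell. Over all tested genes, the mean TPM at 6 hpa had a median of 1.72 for those that rose and 29.5 for those that fell. Proteasome genes that rose had a median of 32.0 TPM at 6 hpa and those that fell one of 296 TPM. The medians were 8.64 and 514 TPM in the spliceosome, 19.3 and 359 TPM for RNA polymerase II and its factors, 10.6 and 314 TPM for DNA replication, and 10.1 and 75.5 TPM for the respiratory chain. Psmb6 had 296 TPM at 6 hpa and Psmd14 21.9 TPM. Snrpb2 had 615 TPM and Srsf7 60.9 TPM. Genes near 0 at 6 hpa have little room to fall on this scale and could reach the filter through a later stage, so these medians describe the members and no test was made of them.

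**Figure D4:**
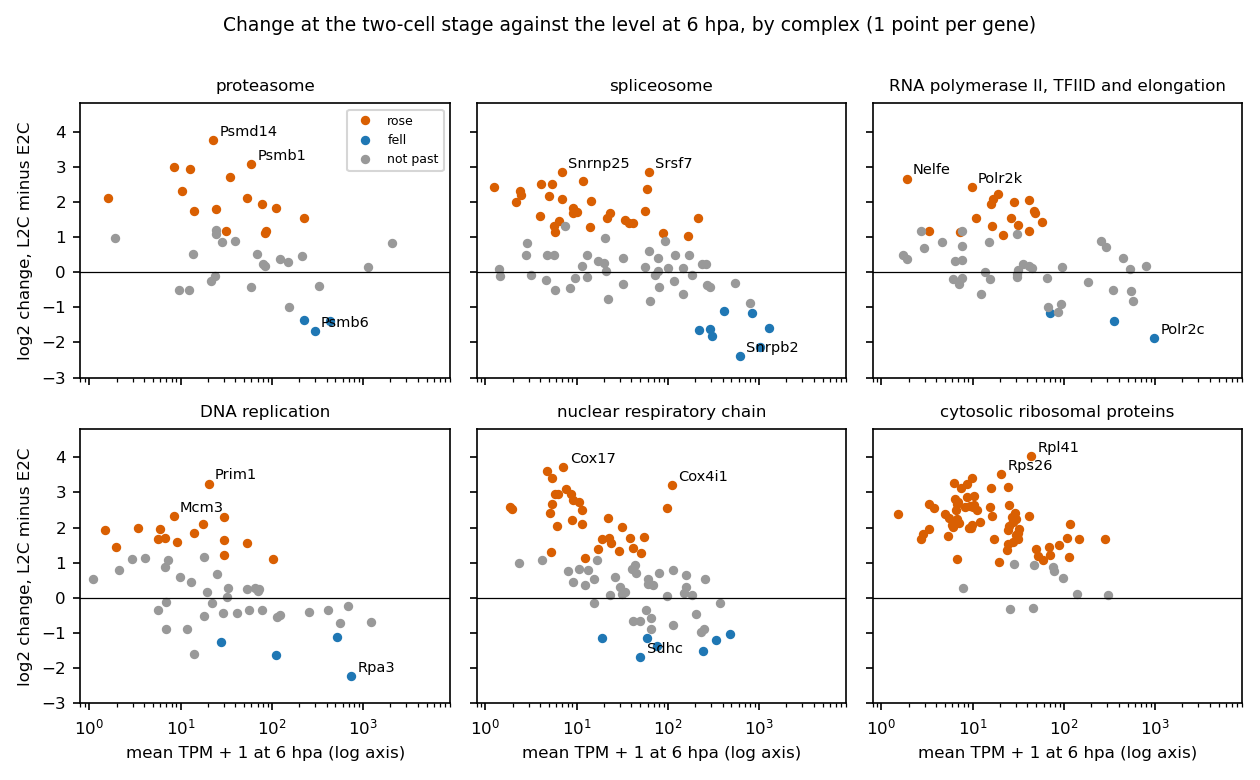
Log2 change from E2C to L2C against mean TPM + 1 at 6 hpa (log axis) for members of 6 gene groups, one point per gene, coloured by whether it rose, fell or did not pass. Genes that fell lie toward the right of those that rose, with medians of 296 against 32.0 TPM in the proteasome and 514 against 8.64 TPM in the spliceosome. Over all tested genes the medians were 29.5 against 1.72 TPM.

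Genes of energy metabolism also moved in both directions. The share fallen was 9.0% in the respiratory chain and 13.9% in glycolysis and the citric acid cycle, against 11.2% over all tested genes. In the respiratory chain 41.0% rose, against 23.7% over all tested genes. Of nuclear genes of the respiratory chain, 32 of 78 tested members rose and 7 fell (median 0.79), and the summed TPM was 6585 to 7501 TPM in E2C (median 7010) and 8572 to 12744 TPM in L2C (median 11279), without overlap. Cox17, the copper chaperone of complex IV, rose from a median of 16.4 TPM to 202 TPM (log2 change 3.73, SE 0.37, adjusted p = 1.21e-11). Ndufc1 and Ndufa9 of complex I and Cox4i1 of complex IV rose by 3.61, 3.42 and 3.22, and Sdhc of complex II fell (log2 change -1.68, SE 0.42, adjusted p = 0.00101). Of glycolysis and citric acid cycle genes, 9 of 36 tested members rose and 5 fell (median 0.48), and the share risen of 25% was near the 23.7% over all genes, but 7 rose and 9 fell with quantile normalization and 3 rose and 4 fell in replicates 1 to 3 alone. In replicates 4 to 6 alone 14 rose and 3 fell. Mpc2, of the mitochondrial pyruvate carrier, rose from a median of 35.2 TPM to 265 TPM (log2 change 3.08, SE 0.42, adjusted p = 4.79e-08), and Idh3g, Idh3b and Mdh2 of the cycle rose by 2.93, 2.55 and 2.52. Ldhb, the lactate dehydrogenase subunit abundant in oocytes, at chr6:142490249-142507957, was at 2174 to 5497 TPM (median 4086) in E2C and 224 to 802 TPM (median 415) in L2C. The stages did not overlap (log2 change -3.17, SE 0.47, adjusted p = 2.89e-07). Citrate synthase Cs, Dlat, Suclg1 and Suclg2 fell with it, and the summed TPM of the list was 3360 to 6459 TPM in E2C (median 5233) and 1374 to 3233 TPM in L2C (median 2748), a lower L2C median although more members rose than fell.

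Of the readers, writers and erasers of H3K9me3, 9 of 20 tested members rose and 1 fell (median 0.56), shares of 45% and 5.0% against 23.7% and 11.2% over all tested genes. With quantile normalization 8 rose and 4 fell. Cbx3, which encodes the heterochromatin protein HP1 gamma, was at 21.9 to 163 TPM (median 65.9) in E2C and 339 to 2056 TPM (median 693) in L2C. Replicates 1 to 3 were above replicates 4 to 6 at both stages, and the stages did not overlap (log2 change 3.58, SE 0.46, adjusted p = 1.41e-08). Fam208a of the HUSH silencing complex, the H3K9 demethylase genes Kdm3a and Kdm4c and Trim28, the corepressor of KRAB zinc finger proteins, also rose, the first 3 by 2.33, 2.24 and 1.93. Cbx1, for HP1 beta, was at 79.2 to 125 TPM (median 97.2) in E2C and 11.1 to 117 TPM (median 49.1) in L2C. L2C replicates 4 and 5 lay inside the E2C range and the other L2C libraries below it, and it fell by 1.15 on the log2 scale (SE 0.36, adjusted p = 0.00824), with -2.12 in replicates 1 to 3 and -0.18 in replicates 4 to 6. Without L2C replicate 1 its change was -0.78, with TPM rescaled it was -0.83, and it passed in neither case nor in replicates 4 to 6 alone. Of the factors the study worked with, 3 of 7 tested rose and 1 fell (42.9% and 14.3%). The study picked several of them with expression in embryos in view, so the count is not independent evidence of a direction. Yy1, a zinc finger factor, was at 0.701 to 14.8 TPM (median 3.09) in E2C and 19.07 to 80.7 TPM (median 31) in L2C. The stages did not overlap (log2 change 2.91, SE 0.62, adjusted p = 1.44e-04). Mycn, a MYC family factor, was at 0 to 1.07 TPM (median 0.327) in E2C and 2.59 to 18 TPM (median 7.46) in L2C, a log2 change of 2.55 (SE 0.48, adjusted p = 2.20e-05). Max, its dimerization partner, was at 46.8 to 84.3 TPM (median 70.2) in E2C and 11.8 to 58.5 TPM (median 26.8) in L2C. Only L2C replicate 4 lay inside the E2C range, and the others were below it (log2 change -1.32, SE 0.47, adjusted p = 0.0205). The fall of Max did not pass in 8 of the 24 alternatives, among them replicates 1 to 3 alone, replicates 4 to 6 alone, TPM rescaled, pseudocount 0.1 and the fits without L2C replicate 1 (-1.1), 2 or 3. The ETS factor gene Spi1 rose by 1.47, and did not pass in 11 of the 24 alternatives. Mcrs1 (-0.17), the acetyltransferase gene Kat5 (0.61) and the methyltransferase gene Suv39h2 (-0.49) did not pass, and Kdm4b was below the filter.

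Several oocyte genes were among the 10 largest falls without overlap, which started with AU022751 (log2 change -4.46) and Rfpl4, an oocyte RING-finger protein gene at chr7:5109787-5116911. Rfpl4 was at 2704 to 3608 TPM (median 3362) in E2C and 41 to 501 TPM (median 181) in L2C. All L2C libraries were far below all E2C libraries (log2 change -4.45, SE 0.47, adjusted p = 9.79e-11). Bcl2l10, a BCL2 family protein of the oocyte, fell from a median of 4419 TPM to 388 TPM (log2 change -4.0, SE 0.54, adjusted p = 3.46e-08). Nlrp4f, a member of the NLR family found in oocytes, fell from a median of 354 TPM to 24.6 TPM (log2 change -3.8, SE 0.48, adjusted p = 7.46e-09). Next to these stood E330021D16Rik, E330034G19Rik, 4933427D06Rik, Speer5-ps1, Ifit1bl2 and Obox1, with log2 changes of -4.27, -4.13, -4.09, -3.89, -3.71 and -3.6. Of the list of other oocyte-restricted genes to which several belong, 0 of 21 tested members rose and 17 fell, a share of 81% against 11.2% over all tested genes, with a median of -2.32. Its summed TPM was 78431 to 87026 TPM in E2C (median 80731) and 13119 to 60247 TPM in L2C (median 35642).

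The subcortical maternal complex lies under the oocyte membrane and is needed for the first cleavages. Of its genes, 0 of 8 tested members rose and 4 fell (median -1.06), a share fallen of 50% against 11.2% over all tested genes. The genes that fell were Nlrp4f, Zbed3, Ooep and Nlrp2. Zbed3 was at 2998 to 7664 TPM (median 4512) in E2C and 85.3 to 4170 TPM (median 1285) in L2C. L2C replicates 1 to 3 were far below every other library, while replicates 4 to 6 were nearer to E2C (log2 change -2.73, SE 0.68, adjusted p = 0.00108), with -4.79 in replicates 1 to 3 and -0.67 in replicates 4 to 6. Ooep fell from a median of 149.9 TPM to 23.8 TPM (log2 change -2.65, SE 0.36, adjusted p = 4.79e-08) and Nlrp2 from a median of 18.2 TPM to 7.76 TPM (log2 change -1.14, SE 0.22, adjusted p = 4.98e-05). Nlrp5, Tle6, Khdc3 and Padi6 had log2 changes of -0.98, -0.43, -0.94 and -0.34 and did not pass. In the NLR family of pyrin-domain proteins, 0 of 11 tested members rose and 9 fell (median -1.81), with Nlrp4a, Nlrp4g and Nlrp9b at -2.97, -2.68 and -2.42. The share of the family that fell was 81.8%, against 11.2% over all tested genes. The Nlrp4 genes are close copies, and their single values are uncertain.

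Of zona pellucida and oocyte-secreted genes, 1 of 13 tested members rose and 5 fell (median -1.08), and 3 fell without L2C replicate 1. In the full fit 7.7% rose and 38.5% fell, against 23.7% and 11.2% over all tested genes. Izumo1r, which encodes the sperm receptor Juno, fell from a median of 34.2 TPM to 2.99 TPM (log2 change -2.95, SE 0.55, adjusted p = 2.18e-05), and Oosp3 and Oosp2 fell, with log2 changes of -2.69 and -1.86. Gdf9, an oocyte growth factor, had a log2 change of -1.19 and did not pass. Cd9, the tetraspanin needed for sperm fusion, rose from a median of 52.7 TPM to 134 TPM (log2 change 1.54, SE 0.27, adjusted p = 8.43e-06). Of genes of mRNA storage and decay, 7 of 48 tested members rose and 13 fell (median -0.42), shares of 14.6% and 27.1%. With TPM rescaled over annotated genes 11 rose and 11 fell. With quantile normalization 6 rose and 20 fell, and in replicates 1 to 3 alone 5 rose and 8 fell. Btg4, the adaptor that brings the CCR4-NOT deadenylase to maternal mRNA, at chr9:51116001-51119700, was at 4571 to 7016 TPM (median 5678) in E2C and 253 to 2947 TPM (median 1245) in L2C. The stages did not overlap (log2 change -2.6, SE 0.47, adjusted p = 1.48e-05). Eif4e1b, an oocyte cap-binding protein, fell from a median of 100.6 TPM to 20.1 TPM (log2 change -2.48, SE 0.38, adjusted p = 5.61e-07), and Cnot3 and Cnot11 of CCR4-NOT by 1.94 and 1.85 on the log2 scale. Zar1, Zar1l, Dazl, Pabpc1l and Cnot7 fell too. In contrast, members that rose included Zcchc11, Ythdf2, Tob1 and Ddx6.

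The Oog, Pramel and Pramef genes, a leucine-rich repeat family with oocyte and embryo members, moved in both directions. Of these, 6 of 18 tested members rose and 7 fell (median -0.26, but 0.07 with TPM rescaled, 0.02 with quantile normalization and 0.32 with no filter). The shares were 33.3% and 38.9%, against 23.7% and 11.2% over all tested genes. Oog4, C87414, C87499 and C87977 fell, to log2 changes of -2.24, -2.19, -1.99 and -1.85, as did Oog1, Oog2 and Oog3. Pramel6 was at 0.492 to 4.28 TPM (median 2.27) in E2C and 5.82 to 65.6 TPM (median 41.7) in L2C and rose (log2 change 3.45, SE 0.71, adjusted p = 9.10e-05), and its mean was 771 TPM in the inner cell mass. Pramel4, Pramel5, Pramel7, Pramef17 and AU018091 rose too. Median TPM at 6 hpa was 0.785 for the genes that rose and 485 for those that fell. Of the oocyte Fbxw cluster, which encodes F-box proteins in close copies, 0 of 14 tested members rose and 6 fell (median -0.89), a share fallen of 42.9%. In replicates 1 to 3 alone 2 fell, and in replicates 4 to 6 alone 10 fell. With a pseudocount of 0.1 the number that fell was 2, and with TPM rescaled over annotated genes it was 3. Fbxw28 was at 334 to 1724 TPM (median 1055) in E2C and 177 to 400.1 TPM (median 353) in L2C. E2C replicates 4 to 6 held 1663 to 1724 TPM and E2C replicates 1 to 3 held 333.5 to 446 TPM, overlapping the L2C range (log2 change -1.34, SE 0.44, adjusted p = 0.0131). The fall of Fbxw28 did not pass in 7 of the 24 alternatives. In 8 of the 12 Fbxw windows AAGATGG stood within 5 to 35 bases after the start, 66.7% against 7.33% of windows of all tested genes, in copies that share sequence.

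Of genes of meiosis and M phase, 9 of 47 tested members rose and 14 fell (median -0.05). In the full fit the shares were 19.15% and 29.79%, against 23.7% and 11.2% over all tested genes. Only the share fallen was above that of all tested genes, and the share risen was below it. The median was 0.29, with 14 rising and 9 falling, under rescaled TPM, and without L2C replicate 1 9 rose and 10 fell. Ccnb2, cyclin B2, was at 239.8 to 535 TPM (median 383) in E2C and 16.1 to 133 TPM (median 56) in L2C. It fell with log2 change -2.78 (SE 0.39, adjusted p = 1.14e-07), and the CDK-binding protein Cks2, the securin Pttg1 and the meiotic kinase gene Aurkc had -2.42, -2.38 and -2.27. Cdc25c, the phosphatase that activates CDK1, was at 0.892 to 14.5 TPM (median 3.53) in E2C and 49.5 to 144 TPM (median 79.2) in L2C. Every L2C library was above every E2C library (log2 change 3.98, SE 0.46, adjusted p = 1.01e-09), and Cdk1, Aurkb, Kif11, Wee1, Fbxo5, Sycp3, Stag3 and Sgol2a rose too. Within the Cdc25 family, Cdc25b, the phosphatase needed for meiotic resumption, fell from a median of 8.24 TPM to 2.83 TPM (log2 change -1.52, SE 0.52, adjusted p = 0.016). The aurora kinases also split, Aurkc falling and Aurkb, of mitosis, rising from a median of 4.86 TPM to 31.4 TPM (log2 change 2.04, SE 0.65, adjusted p = 0.0103). The summed TPM was 21952 to 38242 TPM in E2C (median 28461) and 4931 to 10204 TPM in L2C (median 9876).

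The upstream 250 bases of Rfpl4 and Ccnb2 are shown as examples of maternal genes that fell, with motif matches in capitals.
Rfpl4 chr7:5116912-5117161 (minus strand): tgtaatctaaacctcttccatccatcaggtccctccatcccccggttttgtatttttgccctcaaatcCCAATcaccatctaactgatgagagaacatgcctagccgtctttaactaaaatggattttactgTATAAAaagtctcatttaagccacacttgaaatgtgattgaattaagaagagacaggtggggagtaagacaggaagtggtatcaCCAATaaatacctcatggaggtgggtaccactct
Ccnb2 chr9:70421555-70421804 (minus strand): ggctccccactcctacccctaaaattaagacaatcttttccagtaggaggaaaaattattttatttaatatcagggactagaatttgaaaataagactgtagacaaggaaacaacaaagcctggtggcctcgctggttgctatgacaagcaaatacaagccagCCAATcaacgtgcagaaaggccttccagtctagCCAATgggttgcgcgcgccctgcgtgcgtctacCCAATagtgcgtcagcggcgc
The capitals mark CCAAT at 182 to 178 and 34 to 30 bases before the start and TATAAA at 118 to 113 in Rfpl4, and CCAAT at 87 to 83, 54 to 50 and 21 to 17 bases in Ccnb2. CCAAT stood in 76.9% of windows of the meiosis and M-phase list, beside the 77.8% of the whole 2-cell list, and in 39.9% of windows of all genes that rose and 39.5% of those that fell. Windows of falling genes held fewer GC and CpG letters than those of rising genes, with a median GC of 55.7% against 60.0% and a median of 14 CpG against 21. GGGCGG stood in 47.9% of falling and 61.5% of rising windows, and CACGTG, the E-box letters read by MYC and MAX, in 7.50% and 12.4%, against 60.1% and 9.83% over all tested genes. TGACGTCA, the cAMP-response letters, stood in 1.74% of falling and 3.58% of rising windows, and TAATCC, of bicoid-class homeodomains, in 5.68% and 7.11%, against 3.2% and 5.98% over all tested genes.

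Of the list of oocyte transcription factors, 1 of 12 tested members rose and 7 fell (median -1.22), shares of 8.3% and 58.3% against 23.7% and 11.2% over all tested genes. The list also holds Hsf2bp, which encodes a binding partner of a heat shock factor and not a transcription factor. Tbpl2, the oocyte paralog of the TATA-binding protein, fell from a median of 29.4 TPM to 2.36 TPM (log2 change -2.97, SE 0.39, adjusted p = 1.68e-08), and Nobox, Zfp57 and Hsf2bp had -2.65, -2.45 and -1.92. Taf4b rose (log2 change 1.5, SE 0.4, adjusted p = 0.002). Of oocyte chromatin genes, 5 of 20 tested members rose and 7 fell (median -0.53), the share risen of 25% being near the 23.7% over all genes. The share fallen was 35%, and 6 rose and 5 fell with TPM rescaled. The oocyte linker histone gene H1foo fell from a median of 368 TPM to 57.6 TPM (log2 change -2.53, SE 0.62, adjusted p = 8.30e-04), and Hist1h2ba and the histone chaperone gene Asf1b had -2.15 and -1.9. Dppa3, which protects 5-methylcytosine in the zygote, was at 15859 to 25143 TPM (median 21809) in E2C and 1692 to 10250 TPM (median 8198) in L2C. The stages did not overlap (log2 change -1.82, SE 0.23, adjusted p = 5.35e-09), and the mean was 14398 TPM at the 8-cell stage, above L2C. Kdm5b, the H3K4 demethylase, rose from a median of 5.14 TPM to 27.5 TPM (log2 change 2.3, SE 0.4, adjusted p = 5.33e-06), as did Ash2l, Hira, Dnmt3l and H2afz.

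**Figure D5:**
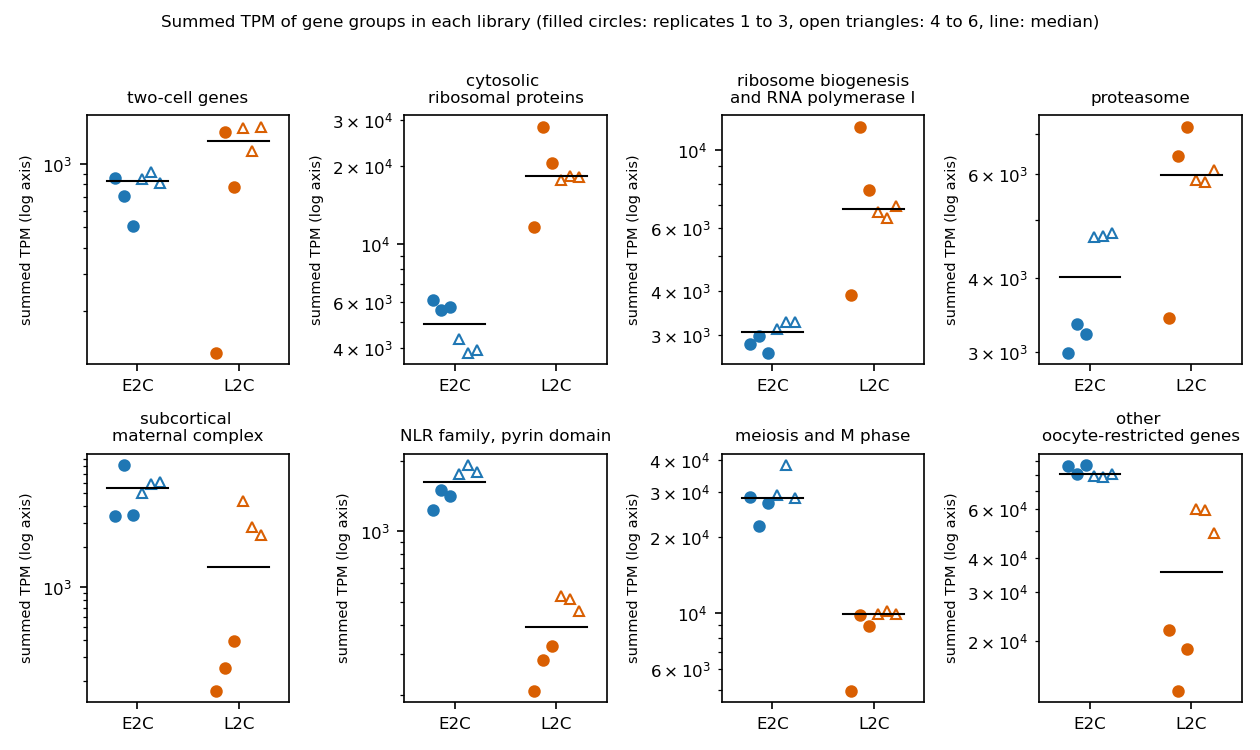
Summed TPM (log axis) of 8 gene groups in each of the 6 E2C and 6 L2C libraries, one point per library. Ribosomal proteins were higher in L2C, the 2-cell group had its lowest sum of 126.8 TPM in L2C replicate 1, and other oocyte-restricted genes had E2C and L2C medians of 80731 and 35642 TPM.

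Markers of the cells the pools could hold were read beside these results. The 31 cumulus cell markers summed to 68.9 to 121.9 TPM in E2C and 42.1 to 95.8 TPM in L2C, against 9227 to 11516 TPM in the cumulus cell libraries, and 2 were at 0 in all E2C libraries. Of these markers 10 reached the filter, 2 rising and 1 falling, shares of 20% and 10%, near the 23.7% and 11.2% over all tested genes. In replicates 1 to 3 alone 0 rose, and in replicates 4 to 6 alone 2 rose and 3 fell. The largest upward changes were those of Timp1 (2.1) and Amhr2 (2.07), which rose, and Tnfaip6 (1.05) and Sparc (0.89), which did not pass, and Cyp19a1 fell (log2 change -2.55, SE 0.32, adjusted p = 6.39e-09). The 7 markers of inner cell mass and trophectoderm summed to 18.5 to 27.4 TPM in E2C and 12.6 to 59.2 TPM in L2C. The 6 oocyte markers summed to 2670 to 4217 TPM in E2C and 618 to 2717 TPM in L2C, with the minimum in replicate 1. The 8 markers of the 2-cell stage summed to 373.6 to 661.6 TPM in E2C, and to between 36.2 TPM in replicate 1 and 1032 TPM in L2C. Only polyadenylated RNA was captured, so a loss of poly(A) tail and a loss of the transcript cannot be told apart for any maternal gene that fell.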

How the data were processed

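SCNT embryos were profiled by Smart-seq2 from polyadenylated RNA of 10 blastomeres with no molecular identifiers, in 6 libraries each of E2C and L2C. The authors used cutadapt 1.16 for trimming, HISAT2 for alignment against mm10 and StringTie for gene quantification, whose versions and annotation are not given in the sources used here. The deposited tables give Coverage (a signal, mean read depth) and FPKM, from which aligned gigabases were derived, and TPM, which the authors left on the scale of all assembled loci of a library, so it was treated as a signal in place of the plain TPM unit planned. Whether strand was used in quantification is not given in the sources used here, so reads of overlapping antisense genes may be mixed.

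TPM was summed per gene over rows with a gene name. Genes with a mean of at least 1 TPM over the 53 SCNT libraries of 9 stages (11867 of 24421) were fitted as log2(TPM + 1) with limma 3.58.1 (lmFit, eBayes with trend) in R 4.3.3, the contrast being L2C minus E2C. P-values were adjusted by Benjamini-Hochberg over all genes tested, two-sided. Past the threshold means adjusted p under 0.05 and at least 2-fold. The method was tested on simulated data. Gene lists (26, with 988 entries, 984 in the tables and 941 tested) and members were chosen with earlier results of these data known. Named genes were the 10 largest rises and falls without overlap between stages and with at least 5 TPM in the higher stage, the largest changes of each list in its main direction and the largest against it, and all members of 3 lists. Genes named beyond these were chosen after their values were seen.

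Promoter windows of RefSeq (GRCm38.p6, 250 bases before to 50 after the start) were matched by symbol for 8897 tested genes. The letters searched on both strands were CCGGAAG for ETS factors, CCAAT for NF-Y, GGGCGG for Sp and Klf factors, CACGTG for the E-box, TGACGTCA for the cAMP-response element, TAATCC for bicoid-class homeodomains, CAAGGTCA for NR5A, AAGATGG for YY1 and TATAAA for the TATA box. Alternatives covered the pseudocount (0.1), the filter, scaling, the libraries fitted, the replicate block, the length trend (lengths for 96.1% of tested genes) and leaving out each library. The 12 tables of fertilized embryos were not used. Python 3.11.15, pandas 2.3.3, numpy 2.4.6 and matplotlib 3.10.9 did the rest. A result for 1 named gene is not reported here.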

Additional observations from a re-analysis of the deposited data

Results flagged for a closer look

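Over both stages together, 62 values were examined, each within the 6 libraries of its stage. They were depth, gene number, annotated percentage, the log2 summed TPM of each gene list and the mean log2 level of rising and of falling genes. A library was flagged where its gap to its nearest neighbour was large for the range of the 6, by Dixon's criterion at the 95% level. Chance flags about 1 in 20, and 15 stood out, 11 of them in L2C replicate 1. That library had annotated genes at 30.4% of the TPM of loci without a gene name, where the next was 51.4%. Its log2 summed TPM was the lowest of L2C for 2-cell genes (6.998, next 9.60), activation transcription factors (9.77, next 11.2), translation factors (11.4, next 12.4), aminoacyl-tRNA synthetases (8.64, next 9.36), the spliceosome (12.2, next 13.1), the proteasome (11.7, next 12.5), RNA polymerase II and its factors (11.9, next 12.8), DNA replication (10.8, next 11.9), meiosis and M phase (12.3, next 13.1) and oocyte chromatin (11.99, next 13.3). These are not independent of that percentage, since each sum is part of the TPM of annotated genes. L2C replicate 2 had the highest chaperone sum, 13.4 against 12.7. E2C replicate 2 had the most aligned sequence, 4.49 gigabases against 3.47, and the most genes at 1 TPM or more, 10917 against 10207. L2C replicate 3 had the most aligned sequence of its stage, 4.68 gigabases against 3.45. Why these libraries differed was not tested.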

How the results depend on the processing

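The counts of genes called were recomputed under 24 alternatives. The number that rose ranged from 1473 in replicates 1 to 3 alone, the largest departure, to 4013 with TPM rescaled over annotated genes, and the number that fell from 1004 with a mean TPM of at least 5 to 2486 with quantile normalization. Apart from 1473 and 2486, every count kept within 1.5 times the main ones. Leaving out 1 library at a time gave 2539 to 2985 rising and 1054 to 1473 falling genes, and the fewest falling genes came without L2C replicate 1. The same genes were called in every fit for 926 that rose and 351 that fell, 32.9% and 26.4% of the main calls. Of 145 named genes that were called, 111 stayed past the threshold in all alternatives. Of the named genes that were called, Zscan4f alone changed sign, with a log2 change of -0.10 in replicates 1 to 3 alone. Dppa3, Cks2 and Pttg1 no longer passed with quantile normalization, nor Nlrp2 with TPM rescaled. In the fit of E2C and L2C alone with a replicate block, 3076 genes rose and 1450 fell, against 3041 and 1338 without it. Same-numbered libraries deviated together with r of 0.0186 to 0.168, not all above 0.1, so the numbers were not taken as pairs. With replicates 1 to 3 against 4 to 6 as a term, an alternative chosen after seeing the data, 3185 rose and 1509 fell. Why replicates 1 to 3 gave fewer rising genes was not tested, and that fit also had fewer libraries. Sequencing depth was 3.05 to 4.68 gigabases, so genes near 0 TPM are poorly resolved. The deposited values hold no read counts, and no count test was run.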

Other observations

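The groups that moved from E2C to L2C had different courses at the other stages of SCNT embryos, given here as the mean summed TPM ± SD over the libraries of a stage (n = 6, and n = 5 at the 4-cell stage). Cytosolic ribosomal protein genes stood at 2834 ± 573 TPM at 6 hpa, 19080 ± 5400 TPM in L2C, 69355 ± 20601 TPM at the 4-cell stage and 107738 ± 3417 TPM at the 8-cell stage, so L2C lay early on their course. Proteasome genes stood at 6440 ± 737 TPM at 6 hpa, 3949 ± 852 TPM in E2C, 5798 ± 1272 TPM in L2C and 32803 ± 2035 TPM in the morula. The sum of glycolysis and citric acid cycle genes, of which Ldhb held a mean of 3923 TPM in E2C, had its lowest stage mean in L2C, at 2465 ± 707 TPM, against 6053 ± 1708 TPM at 6 hpa and 9838 ± 2056 TPM in trophectoderm, while the mean log2(TPM + 1) of the members was 3.23 at 6 hpa, 3.85 in E2C and 4.21 in L2C. The oocyte Fbxw cluster had lost most of its level before the interval described, with 32397 ± 5327 TPM at 6 hpa, 23039 ± 4253 TPM at 14 hpa, 5704 ± 3256 TPM in E2C and 2332 ± 469.8 TPM in L2C. Other oocyte-restricted genes still had 82168 ± 3684 TPM in E2C and 37157 ± 21626 TPM in L2C, and 1424 ± 468 TPM at the 4-cell stage. The genes of the subcortical maternal complex summed to 114 ± 52.4 TPM at the 4-cell stage and was at 4132 ± 1567 TPM in the inner cell mass, where Khdc3 alone had 4095 TPM, and the mean log2(TPM + 1) of the members was 2.69 and 2.73. These differences between stages outside E2C and L2C were not tested.

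Among single genes, Zscan4c had a mean of 14.2 TPM in L2C and 0.0429 TPM at the 4-cell stage, whereas Usp17lb of the same group still had 57.8 TPM there. Tcstv1 had 482 TPM at 6 hpa, above its 355 TPM in E2C. Nupr1 had 3387 TPM in cumulus cells, 5.77 TPM at 14 hpa, 409 TPM in L2C and 5.52 TPM in the inner cell mass. Timd2 went on to 3799 TPM at the 8-cell stage.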
